A study of Mus musculus with 12 samples.

Results

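Intraflagellar transport (IFT) and BBSome genes were taken as a group by name: every probe whose gene symbol or older synonym begins with Ift or Bbs and a digit, together with a fixed set of further names for IFT subunits, the motors of IFT, the GTPase Arl3, Lztfl1 and Tulp3. On the arrays 92 probes of 45 genes had such a name. Of these, 57 probes of 35 genes gave a detection p under 0.01 on at least 3 of the 12 arrays, out of 9381 genes that passed the same filter, and only these 35 could be tested. The 10 that did not pass were Bbs12, Hspb11, Ift46, Ift57, Kif17, Lztfl1, Ttc21b, Ttc30a1, Wdr19 and Wdr35. Of the 35, 30 were detected on all 12 arrays. The other 5 were detected on 5 (Ttc26), 7 (Bbs1), 9 (Traf3ip1), 10 (Ift80) and 11 (Tulp3) arrays. Mkks and Trim32 entered through the older names Bbs6 and BBS11, and Ift22 was listed on the platform as Rabl5. Arl6 and Arl13b, which the name rule also holds, were not analysed here.

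The measurements come from primary tracheal epithelial cells of male C57BL/6J mice, cultured on Transwell membranes with their apical side exposed to air (air-liquid interface, ALI) and transduced by lentivirus with a short hairpin RNA (shRNA). There were 4 groups of 3 biological replicates: ALI day 3 with scrambled shRNA, ALI day 3 with Myb shRNA, ALI day 9 with scrambled shRNA and ALI day 9 with Myb shRNA. Every group therefore carried a lentiviral shRNA, and no untransduced culture was analysed here. The labels give neither the age of the mice nor the promoter of the hairpin, and do not say whether a replicate was 1 mouse or a pool. Levels are log2 normalised intensities on Illumina bead arrays, given with the SD over n = 3 arrays. Differences between groups are on the same log2 scale with their SE. Adjusted p-values are from limma with Benjamini-Hochberg adjustment over the 9381 genes, and a gene is said to rise or fall where the adjusted p was under 0.05. A probe's level was set against that of no other probe.

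Cilia are built and kept by trains that run along the axoneme: kinesin-2 carries the IFT-B complex with its cargo towards the tip, and the dynein-2 motor with the IFT-A complex brings the train back. The BBSome is a coat of Bardet-Biedl syndrome proteins that rides on these trains and moves membrane proteins out of the cilium, and a small set of chaperonin-like proteins assembles it. In airway epithelium the multiciliated cells, which carry many motile cilia, make these proteins in large amounts during differentiation, while other cell types can use them for a single primary cilium.

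Promoter sequences of 30 of the 35 measured members were found in RefSeq (GRCm38.p6), as windows around the start of each gene. Regulatory factor X (RFX) proteins, known regulators of ciliary genes, bind the X-box, searched here on both strands as the half-sites GTTNC and GGNAAC with 3 bases between them. Of the 2 members whose promoters held it, Bbs7 fell with Myb shRNA at both days, while Ttc26 passed the detection filter only through the day 9 scrambled arrays. Their promoters are printed 5′ to 3′ on the strand of the gene with the X-box in capitals.
Bbs7, chr3:36613474-36613533, minus strand: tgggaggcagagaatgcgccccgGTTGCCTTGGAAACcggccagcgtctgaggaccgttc
Ttc26, chr6:38381468-38381523, plus strand: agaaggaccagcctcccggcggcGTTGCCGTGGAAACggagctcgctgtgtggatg
Counted from the start of the gene, the X-box began at -121 in Bbs7 and at -33 in Ttc26. It was held by 6.667% of the 30 member genes and by 0.9362% of 27025 genes with a promoter sequence. The MYB motif, CAACNG or TAACNG on either strand, was held by 70% of the member genes and 53.14% of all genes. The forkhead motif GTAAACA, named for the family of Foxj1, occurred in 0 of the 30 member genes and in 4.052% of all. The X-box and the MYB motif can share letters where they overlap. These are matches of letters and were not tested as binding sites.

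Myb, the targeted gene, could not be checked with these arrays, since its 4 probes all failed the detection filter, with a single detection (1 probe on 1 array). Markers of tracheal epithelium were measured in every group. The basal cell gene Krt5 stood at 8.72 ± 0.36 in day 9 scrambled cultures and the club cell secretory gene Scgb1a1 at 10.09 ± 0.60. Foxj1, the transcription factor of motile ciliogenesis, stood at 7.24 ± 0.31. The mean level over 11 basal markers ranged from 9.12 to 9.33 over the day 9 scrambled arrays and from 9.66 to 9.84 over the day 9 Myb shRNA arrays, and from 9.16 to 9.88 and 9.90 to 10.54 at day 3. Over 9 club and goblet markers the corresponding ranges were 11.32 to 11.68 and 10.42 to 10.63 at day 9, and 10.55 to 11.10 and 10.00 to 10.14 at day 3. Of 19 markers of other cell types 4 passed the filter (Lyz2, Cd68, Dclk1 and Acta2), with mean levels of 8.71 to 8.91 and 8.53 to 8.89 at day 9, and 9.50 to 9.62 and 8.67 to 9.22 at day 3. Taken singly, Lyz2 fell (13.46 with scrambled and 12.16 with Myb shRNA) and Dclk1 rose (7.15 and 7.75) at day 9. At day 3 Lyz2 (12.67 and 10.87) and Cd68 (8.14 and 7.54) fell. The day 9 means of these markers thus join opposite moves. The list means of basal markers were thus higher, and those of club and goblet markers lower, with Myb shRNA on the arrays of both days, without overlap. Of all genes 6.65% rose and 9.48% fell at day 9, and 11.5% rose and 11.2% fell at day 3. By gene, 3 of 11 basal markers rose at day 9 and 6 at day 3, and 0 fell by limma, with Ngfr at -0.10 ± 0.26 and -0.31 ± 0.26 (adjusted p = 0.844 and 0.413). At an unadjusted limma p under 0.05, 0 basal markers were lower at either day, beside 13.9% of all genes at day 9 and 17.5% at day 3. Of the 9 club and goblet markers 5 fell at day 9, while at day 3 6 fell and 1, Bpifa1, rose by 0.84 ± 0.11 (adjusted p = 0.000122). At an unadjusted limma p under 0.05, 7 were lower and 1 higher at day 9, beside 13.9% and 14% of all genes. At day 3, 6 were lower and 2 higher, beside 17.5% and 18.6%. Bpifb1, without a call, stood at 8.47 with scrambled and 9.65 with Myb shRNA at day 3. Cyp2f2 read 15.44 on every day 9 array (SD 0), so no difference could show there. The part of these markers in the results that follow was not tested. In bulk RNA of this kind, fewer ciliated cells and less RNA of a gene per ciliated cell cannot be told apart.

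Over all 35 measured members the mean level was 8.10, 8.11 and 8.50 on the 3 day 3 scrambled arrays and 7.63, 7.59 and 7.55 on the day 3 Myb shRNA arrays. It was 8.86, 8.88 and 9.11 on the day 9 scrambled arrays and 8.16, 8.18 and 8.49 on the day 9 Myb shRNA arrays. The day 9 scrambled arrays were the highest and the day 3 Myb shRNA arrays the lowest, with no overlap between these and the other groups. Day 9 Myb shRNA and day 3 scrambled arrays lay between them. In 3 of the 4 groups the array numbered 3 was the highest. By gene, 32 members had their highest group mean in day 9 scrambled cultures, 33 had their lowest in day 3 Myb shRNA cultures, and 31 had both. Day 9 Myb shRNA cultures stood beside day 3 scrambled cultures at a median difference of -0.0031 over the members, with 17 higher and 18 lower (range -0.695 to 0.665), which is a description without a test.

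**Figure D1:**
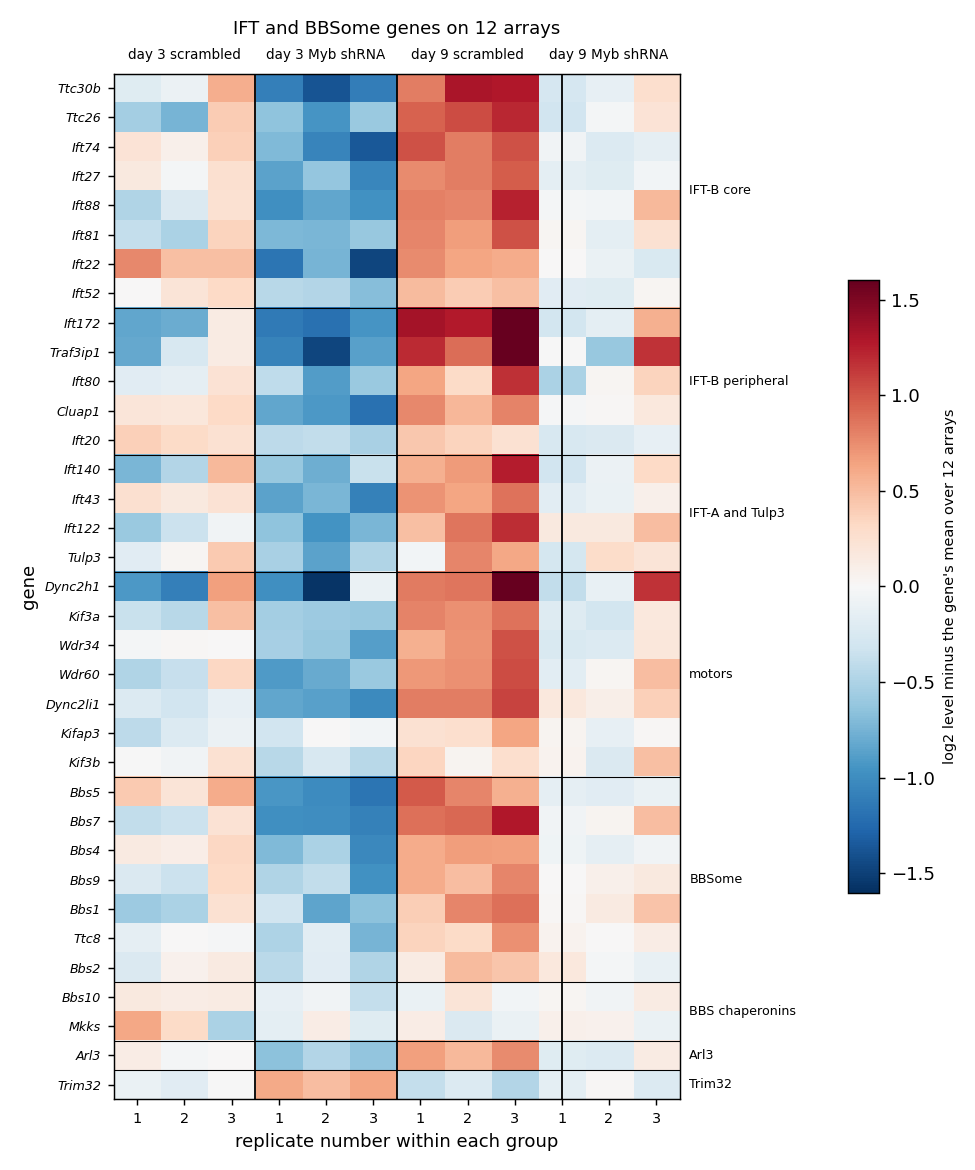
Heat map of the 35 measured members (rows, grouped by role) on the 12 arrays (columns, grouped by day and shRNA). Colour is the log2 level minus that gene's mean over the arrays, and values past the ends of the colour scale take its end colour. For 31 members the highest group mean was in day 9 scrambled and the lowest in day 3 Myb shRNA cultures, and Trim32 ran the other way.

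In the comparison of Myb with scrambled shRNA at day 9, most transport genes were lower with Myb shRNA. Of the 35 measured members 20 fell with Myb shRNA, where 9.48% of all tested genes fell, and 0 rose, where 6.65% of all genes rose. The median difference was -0.74 over the members and 0.05 over all genes. At an unadjusted limma p under 0.05, 27 members were lower and 0 higher, beside 13.9% and 14% of all genes. The arrays of the 2 shRNAs did not overlap, Myb shRNA being lower, for 24 members and for 16.9% of all genes. Of the 30 members detected on all arrays 19 fell, the other call being Ttc26, which passed the filter only through the day 9 scrambled arrays. With the replicate number as a block in the fit 26 fell, where 24.8% of all genes were called in either direction (16.1% without the block), the same 20 among them, and Dync2h1, Ift122, Ift140, Ift80, Kifap3 and Traf3ip1 were gained. Of the 20 calls, 17 held whichever array was left out, and the exceptions were Ift81, Ift88 and Wdr60.

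At day 3, early in differentiation, 16 members fell with Myb shRNA, where 11.2% of all genes fell. A single member, Trim32, rose, where 11.5% of all genes rose. The median difference was -0.60 over the members and 0.00 over all genes, and of the 30 members detected on all arrays 15 fell. Without overlap, 27 members were lower, beside 18.7% of all genes. With the replicate block the count of calls in either direction went from 17, beside 22.7% of all genes, to 27, beside 36.2% of all genes, so calls rose over all genes as well. The 10 calls gained, all lower, were Bbs9, Ift122, Ift172, Ift80, Ift81, Kif3a, Kif3b, Traf3ip1, Ttc8 and Wdr60. Of the 17 calls 15 held whichever array was left out, the exceptions being Ift88 and Tulp3.

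**Figure D2:**
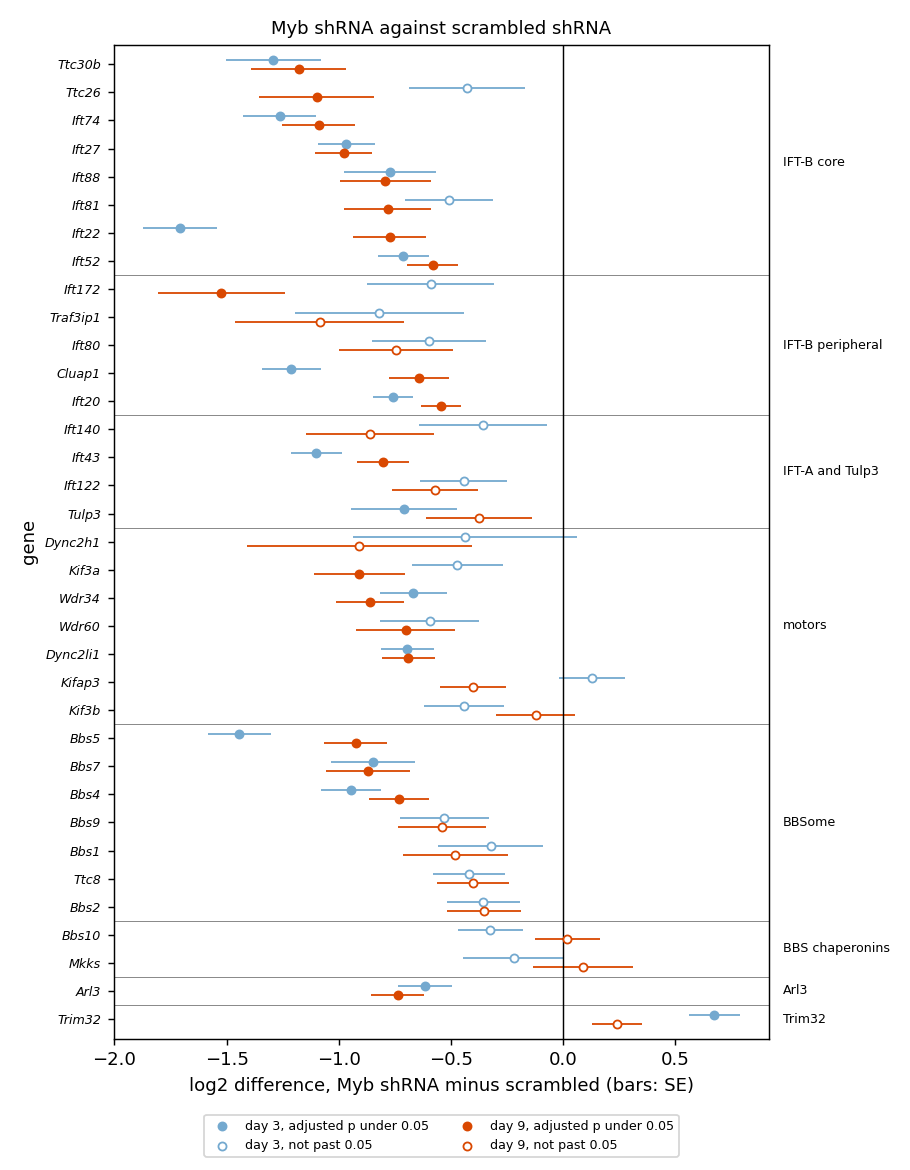
Log2 difference, Myb minus scrambled shRNA, at day 9 and day 3 for each measured member, with bars for the SE (3 arrays per group). Filled points passed an adjusted p of 0.05. The points lie below 0 for most members, and the filled points above 0 are limited to Trim32 at day 3.

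Of the IFT-B core, the stable centre of the anterograde train, 7 subunits were detected on all arrays, of which 7 fell at day 9 and 6 at day 3. Beside these counts, and those of the other roles below, 9.48% of all genes fell at day 9 and 11.2% at day 3. Ttc26, the other measured core gene, is described apart because it passed the filter only through its day 9 scrambled arrays. Ift27, a small GTPase subunit that also takes part in BBSome exit from the cilium, read 10.59, 10.66 and 10.81 on the day 9 scrambled arrays and 9.68, 9.65 and 9.80 on the day 9 Myb shRNA arrays. At day 3 it read 10.00, 9.81 and 10.10 (scrambled) and 8.99, 9.22 and 8.80 (Myb shRNA). All Myb shRNA arrays lay below all scrambled arrays of the same day. Ift27 fell by 0.98 ± 0.13 at day 9 (adjusted p = 0.000222) and by 0.97 ± 0.13 at day 3 (adjusted p = 0.000129), a 1.97-fold difference at day 9 and a 1.95-fold difference at day 3. Ift74, which with Ift81 binds tubulin, read 8.55, 8.35 and 8.54 with scrambled and 7.48, 7.31 and 7.39 with Myb shRNA at day 9. Its day 3 levels were 7.75, 7.61 and 7.91 (scrambled) and 6.83, 6.47 and 6.18 (Myb shRNA). The groups were again apart at both days, with differences of -1.09 ± 0.16 at day 9 (adjusted p = 0.000515), with -1.26 ± 0.16 at day 3 (adjusted p = 0.000106).

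Ttc30b, a subunit with tetratricopeptide repeats, read 9.89, 10.37 and 10.35 on day 9 scrambled and 8.80, 8.94 and 9.34 on day 9 Myb shRNA arrays. It read 8.87, 8.97 and 9.65 (scrambled) and 7.97, 7.69 and 7.96 (Myb shRNA) at day 3. It fell at day 9 by 1.18 ± 0.21 (adjusted p = 0.00184), and at day 3 it fell by 1.29 ± 0.21 (adjusted p = 0.000715). Ttc30b has the near-identical paralog Ttc30a1, whose own probes did not pass the filter, and whether its probe also binds that transcript was not tested. Ift22, a small GTPase subunit known earlier as Rabl5, read 9.92, 9.63 and 9.63 on day 3 scrambled and 7.98, 8.40 and 7.68 on day 3 Myb shRNA arrays, and 9.90, 9.78 and 9.74 (scrambled) and 9.15, 9.04 and 8.91 (Myb shRNA) at day 9. Its fall of 1.71 ± 0.16 at day 3 (adjusted p = 9.2e-06) is a 3.27-fold difference, the widest at that day among members detected on all arrays, while at day 9 it fell by 0.77 ± 0.16 (adjusted p = 0.00524).

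Ift52, a scaffold of the core, differed by -0.58 ± 0.11 at day 9 (adjusted p = 0.0032), with -0.71 ± 0.11 at day 3 (adjusted p = 0.000596). Ift88, the Tg737 or polaris gene whose loss gives mice without proper cilia, differed by -0.79 ± 0.20 at day 9 (adjusted p = 0.0165), which became 0.0828 without day 9 scrambled replicate 3, and by -0.77 ± 0.20 at day 3 (adjusted p = 0.0153, and 0.0534 without day 3 Myb shRNA replicate 1). Ift81 fell at day 9 by 0.78 ± 0.19 (adjusted p = 0.014, and 0.0684 without day 9 scrambled replicate 3). At day 3 it differed by -0.51 ± 0.19 (adjusted p = 0.0767, and 0.00575 with the replicate block). Ttc26, whose product is known from Chlamydomonas and zebrafish for carrying motility proteins, was near background. It was detected on all day 9 scrambled arrays, on 1 array each of day 3 scrambled and day 9 Myb shRNA, and on none of day 3 Myb shRNA, with levels of 6.34, 6.44 and 6.60 (scrambled) and 5.10, 5.36 and 5.62 (Myb shRNA) at day 9. The fitted day 9 difference was -1.10 ± 0.26 (adjusted p = 0.00982). With 1 of 3 Myb shRNA arrays detected this is no exact size, and a gene that passed the filter through the group where it is high had to differ. At day 3 no fold is given because the dim group had no detection.

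Of the 5 measured peripheral IFT-B subunits, which join the core to the motor and cargo, 3 fell at day 9 and 2 at day 3. Ift172, the largest IFT-B protein, read 11.76, 11.69 and 12.50 on day 9 scrambled and 10.13, 10.26 and 10.99 on day 9 Myb shRNA arrays. It fell by 1.52 ± 0.28 (adjusted p = 0.00226), a 2.87-fold difference and the widest at day 9 among members detected on all arrays. At day 3 it read 9.59, 9.63 and 10.55 (scrambled) and 9.29, 9.23 and 9.47 (Myb shRNA), a difference of -0.59 ± 0.28 (adjusted p = 0.151, and 0.00229 with the replicate block). The array numbered 3 was the highest for Ift172 in each group, and the shRNA groups did not overlap at either day.

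Cluap1, also called Ift38, read 8.19, 8.18 and 8.31 on day 3 scrambled and 7.17, 7.07 and 6.81 on day 3 Myb shRNA arrays, and 8.77, 8.52 and 8.79 (scrambled) and 7.97, 8.02 and 8.16 (Myb shRNA) at day 9. Its Myb shRNA arrays lay below the scrambled arrays at both days, with differences of -1.21 ± 0.13 at day 3 (adjusted p = 2.82e-05), with -0.64 ± 0.13 at day 9 (adjusted p = 0.00463). Ift20, the subunit that also sits at the Golgi, read 11.95, 11.88 and 11.82 (scrambled) and 11.15, 11.18 and 11.05 (Myb shRNA) at day 3 and 12.00, 11.92 and 11.81 (scrambled) and 11.32, 11.34 and 11.44 (Myb shRNA) at day 9. The spread within groups was small and the shRNA groups did not overlap, with falls of 0.76 ± 0.09 at day 3 (adjusted p = 5.11e-05), with 0.54 ± 0.09 at day 9 (adjusted p = 0.000966). Traf3ip1, the microtubule-binding Ift54, differed by -1.08 ± 0.38 at day 9 (adjusted p = 0.0699, and 0.00266 with the block), with -0.82 ± 0.38 at day 3 (0.135 and 0.0118). Ift80 differed by -0.74 ± 0.25 at day 9 (adjusted p = 0.0633, and 0.0123 with the block), with -0.60 ± 0.25 at day 3 (0.106 and 0.0288). At day 3 Traf3ip1 was detected on 2 scrambled arrays and 1 Myb shRNA array. Ift80 was detected on 2 of the 3 Myb shRNA arrays of each day. Differences that use these groups are no exact sizes.

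IFT-A and its partner Tulp3, which bring membrane receptors into the cilium and serve the return train, were represented by 4 measured genes, since Ttc21b, Wdr19 and Wdr35 did not pass the filter. Ift43 fell at both days. It read 11.41, 11.32 and 11.56 on day 9 scrambled and 10.53, 10.58 and 10.78 on day 9 Myb shRNA arrays, and 10.95, 10.85 and 10.92 (scrambled) and 9.84, 9.97 and 9.62 (Myb shRNA) at day 3. The arrays of the 2 shRNAs were apart at each day, with falls at day 9 and day 3 of 0.80 ± 0.11 (adjusted p = 0.000408) and 1.10 ± 0.11 (adjusted p = 1.79e-05). Ift122 read 7.90, 8.27 and 8.59 (scrambled) and 7.57, 7.57 and 7.90 (Myb shRNA) at day 9, where the groups overlapped, and 6.82, 7.07 and 7.36 (scrambled) and 6.77, 6.46 and 6.68 (Myb shRNA) at day 3, where they did not. At day 9 and day 3 its differences were -0.57 ± 0.19 (adjusted p = 0.0607, and 0.00928 with the block) and -0.44 ± 0.19 (adjusted p = 0.114, and 0.0272). Ift140 differed by -0.86 ± 0.29 at day 9 (adjusted p = 0.057, and 0.000602 with the block), with -0.35 ± 0.29 at day 3 (adjusted p = 0.397). Tulp3 fell at day 3 by 0.71 ± 0.24 (adjusted p = 0.0459), a call made in only 5 of the 12 fits that each left out 1 array (adjusted p up to 0.126, without day 3 Myb shRNA replicate 2). Only 2 of the 3 day 3 Myb shRNA arrays detected Tulp3, so this is no exact size. At day 9 Tulp3 differed by -0.38 ± 0.24 (adjusted p = 0.338).

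Among the 7 measured motor genes 4 fell at day 9 and 2 at day 3. Dync2li1, the light intermediate chain of dynein-2, read 10.74, 10.73 and 11.00 on day 9 scrambled and 10.08, 10.01 and 10.30 on day 9 Myb shRNA arrays, and 9.70, 9.61 and 9.79 (scrambled) and 9.08, 9.04 and 8.89 (Myb shRNA) at day 3. At day 9 and day 3 it fell by 0.69 ± 0.12 (adjusted p = 0.00131) and 0.69 ± 0.12 (adjusted p = 0.000939). Wdr34, an intermediate chain of the same motor, read 10.12, 10.28 and 10.57 (scrambled) and 9.31, 9.34 and 9.74 (Myb shRNA) at day 9 and 9.52, 9.57 and 9.56 (scrambled) and 9.03, 8.95 and 8.67 (Myb shRNA) at day 3. The groups did not overlap at either day, and the falls at day 9 and day 3 were 0.86 ± 0.15 (adjusted p = 0.00154) and 0.67 ± 0.15 (adjusted p = 0.00624). Wdr60, the other intermediate chain, fell by 0.70 ± 0.22 at day 9 (adjusted p = 0.0445), a call made in 4 of the 12 fits that each left out 1 array (adjusted p up to 0.178, without day 9 Myb shRNA replicate 1). At day 3 Wdr60 differed by -0.59 ± 0.22 (adjusted p = 0.068, and 0.00165 with the block).

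Dync2h1, the heavy chain of dynein-2, had the widest spread of the motor genes, with 8.40, 8.42 and 9.25 on day 9 scrambled and 7.18, 7.45 and 8.72 on day 9 Myb shRNA arrays. The array numbered 3 was the highest within each of the 4 groups, and the shRNA groups overlapped. Its difference was -0.91 ± 0.50 (adjusted p = 0.267, and 0.00139 with the replicate block) at day 9, with -0.44 ± 0.50 (adjusted p = 0.565) at day 3. Of the kinesin-2 subunits, the motor subunit Kif3a read 10.27, 10.20 and 10.35 (scrambled) and 9.27, 9.19 and 9.64 (Myb shRNA) at day 9 and fell by 0.91 ± 0.20 (adjusted p = 0.00754). Its day 3 difference was -0.47 ± 0.20 (adjusted p = 0.112, and 0.0241 with the block). Kif3b, its partner motor subunit, differed by -0.12 ± 0.18 at day 9 (adjusted p = 0.716), with -0.44 ± 0.18 at day 3 (adjusted p = 0.0888, and 0.0348 with the block). Kifap3, the adaptor of the trimer, differed at day 9 and day 3 by -0.40 ± 0.15 (adjusted p = 0.0834, and 0.0255 with the block) and 0.13 ± 0.15 (adjusted p = 0.555).

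In the BBSome itself 3 of 7 measured subunits fell, and they were the same at both days: Bbs4, Bbs5 and Bbs7. Bbs5, the subunit with lipid-binding folds, read 8.82, 8.60 and 8.99 on day 3 scrambled and 7.47, 7.39 and 7.23 on day 3 Myb shRNA arrays, and 9.38, 9.18 and 8.96 (scrambled) and 8.25, 8.21 and 8.29 (Myb shRNA) at day 9. It fell by 1.44 ± 0.14 at day 3 (adjusted p = 1.03e-05) and by 0.92 ± 0.14 at day 9 (adjusted p = 0.000595), without overlap. Bbs4 read 8.87, 8.84 and 9.06 (scrambled) and 8.02, 8.23 and 7.70 (Myb shRNA) at day 3 and 9.33, 9.40 and 9.39 (scrambled) and 8.66, 8.59 and 8.67 (Myb shRNA) at day 9. The Myb shRNA arrays were the lower, with differences at day 3 and day 9 of -0.94 ± 0.13 (adjusted p = 0.000247) and -0.73 ± 0.13 (adjusted p = 0.00215). Bbs7, 1 of the 2 members with an X-box in the printed promoters, read 9.54, 9.58 and 9.95 (scrambled) and 8.60, 8.70 and 9.16 (Myb shRNA) at day 9 and 8.27, 8.31 and 8.89 (scrambled) and 7.68, 7.67 and 7.58 (Myb shRNA) at day 3. Its falls at day 9 and day 3 were 0.87 ± 0.19 (adjusted p = 0.00623) and 0.85 ± 0.19 (adjusted p = 0.00567).

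The other BBSome subunits did not pass the test at either day. Bbs9 differed by -0.54 ± 0.20 at day 9 (adjusted p = 0.0841), with -0.53 ± 0.20 at day 3 (adjusted p = 0.0705, and 0.0448 with the block). Ttc8, also known as Bbs8, differed at day 9 and day 3 by -0.40 ± 0.16 (adjusted p = 0.115) and -0.42 ± 0.16 (adjusted p = 0.0772, and 0.044 with the block). Bbs2 differed at the same days by -0.35 ± 0.16 (adjusted p = 0.181) and -0.36 ± 0.16 (adjusted p = 0.135), and Bbs1, dim on the day 3 arrays, by -0.48 ± 0.24 at day 9 (adjusted p = 0.208). The chaperonin-like genes that assemble the BBSome gave no call at either day: Bbs10 differed by 0.02 ± 0.14 at day 9 (adjusted p = 0.955), with -0.32 ± 0.14 at day 3 (adjusted p = 0.123), and Mkks, at day 9 and day 3, by 0.09 ± 0.22 (0.847) and -0.22 ± 0.22 (0.512). Of all genes 16.1% were called in either direction at day 9 and 22.7% at day 3. At an unadjusted limma p under 0.05, 0 of these 2 genes passed at day 9 and 1 at day 3, beside 27.9% and 36.1% of all genes. With 2 genes such counts do not set the group apart. Such p-values do not show that levels were equal.

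Arl3, the GTPase that releases lipidated cargo inside the cilium, fell at both days. It read 10.73, 10.61 and 10.84 on day 9 scrambled and 9.89, 9.87 and 10.21 on day 9 Myb shRNA arrays, and 10.21, 10.05 and 10.09 (scrambled) and 9.43, 9.61 and 9.46 (Myb shRNA) at day 3. The falls were, at day 9 and day 3, 0.74 ± 0.12 (adjusted p = 0.000891) and 0.62 ± 0.12 (adjusted p = 0.0023). Trim32, a ubiquitin ligase that carries a Bardet-Biedl name without being a subunit of the BBSome, ran the opposite way. Its levels were 9.33, 9.26 and 9.44 on day 3 scrambled and 10.05, 9.93 and 10.07 on day 3 Myb shRNA arrays, all of the second above all of the first, a rise of 0.68 ± 0.11 (adjusted p = 0.000794). At day 9 it read 9.07, 9.22 and 8.97 (scrambled) and 9.29, 9.47 and 9.23 (Myb shRNA), a difference of 0.24 ± 0.11 (adjusted p = 0.184).

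**Figure D3:**
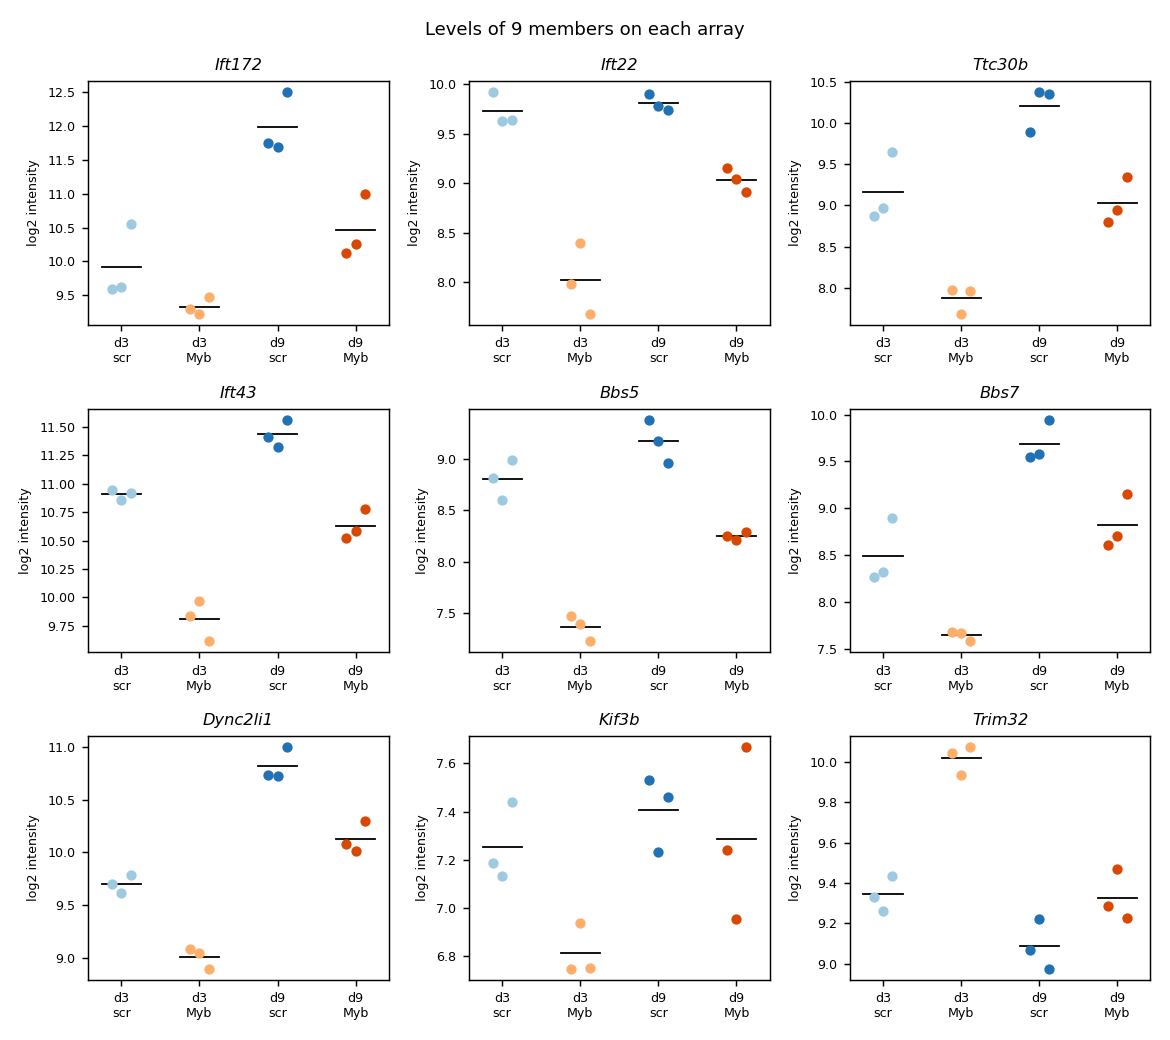
Log2 level on each array for Ift172, Ift22, Ttc30b, Ift43, Bbs5, Bbs7, Dync2li1, Kif3b and Trim32, by day and shRNA, with each point an array and each line a group mean. Ift22 and Bbs5 were lowest by a wide step in day 3 Myb shRNA, Ift172 was highest by a wide step in day 9 scrambled, and Trim32 was highest in day 3 Myb shRNA cultures.

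The calls of the 2 days were set side by side. The group means compared share no array between the days, but the spread of each gene was fitted over the arrays of all groups. Each member thus has the same SE at both days, and the overlap of the calls is not that of independent tests. The 15 members that fell at both days, where 5.73% of all tested genes did, were Arl3, Bbs4, Bbs5, Bbs7, Cluap1, Dync2li1, Ift20, Ift22, Ift27, Ift43, Ift52, Ift74, Ift88, Ttc30b and Wdr34. They made up 15 of the 20 that fell at day 9 and 15 of the 16 that fell at day 3. Passed at day 9 alone were Ift172, Ift81, Kif3a, Ttc26 and Wdr60, and at day 3 alone Tulp3. Whether a member's response differed between the days was tested as the interaction of day and shRNA. For this interaction limma called 0 of 35 members at an adjusted p under 0.05, against 1.65% of all genes, and 6 at an unadjusted p under 0.05, against 14.2% of all genes, of which 3 were positive and 3 negative. The count of 0 depends on the fit: array weights called 8 members and 19.5% of all genes, and leaving out the 4 arrays numbered 3, chosen after seeing the data, called 9 and 15%. The interaction was -0.93 ± 0.40 for Ift172, the most negative (adjusted p = 0.307), and 0.93 ± 0.23 for Ift22, the most positive (adjusted p = 0.0618). With the replicate block, although the numbers were not read as pairs for this contrast, these were the 2 members called (adjusted p = 0.00644 for Ift172 and 0.0076 for Ift22), a share of 5.71% beside 7.62% of all genes.

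From day 3 to day 9, the interval in which ALI cultures of this kind usually become ciliated, 24 of the 35 measured members rose in scrambled cultures, where 9.55% of all genes rose, and 0 fell, where 7.52% of all genes fell. A single member was lower at an unadjusted limma p under 0.05, beside 17% of all genes. The median difference was 0.72 over the members and -0.07 over all genes. With Myb shRNA 22 members rose, where 9.26% of all genes rose, and Trim32 alone fell, where 7.43% fell. The median difference was then 0.70, against -0.03 over all genes. Of the 30 members detected on all arrays 21 rose in scrambled and 20 in Myb shRNA cultures. Bbs1, called in both arms, and Ttc26, called in scrambled cultures, passed the filter only through day 9 arrays, so their rise was favoured by the filter. The day 9 and day 3 arrays of these comparisons also enter the shRNA comparisons, so the values of the 2 arms are given side by side and their likeness is not read as a result. Only 15 of the 24 calls in scrambled and 13 of the 23 in Myb shRNA cultures (where 16.7% of all genes were called in either direction) held whichever array was left out. The exceptions were Bbs1, Bbs4, Bbs9, Cluap1, Dync2h1, Ift140, Kifap3, Traf3ip1 and Ttc8 in scrambled cultures (adjusted p up to 0.194) and Arl3, Bbs1, Bbs9, Ift172, Ift52, Ift81, Traf3ip1, Ttc8, Wdr34 and Wdr60 in Myb shRNA cultures (adjusted p up to 0.136). The count fell to 15 in scrambled cultures without day 3 scrambled replicate 1 or day 9 scrambled replicate 3, and to 13 in Myb shRNA cultures without day 9 Myb shRNA replicate 3. With the replicate block 26 were called in scrambled cultures (beside 30.0% of all genes), Bbs5 and Ift80 being gained, and 31 in Myb shRNA cultures (beside 25.2% of all genes), with Dync2h1, Ift140, Ift20, Ift80, Kif3a, Kif3b, Ttc26 and Tulp3 gained.

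Among members detected on all arrays, Ift172 rose the most in scrambled cultures, by 2.06 ± 0.28 (adjusted p = 0.000303), a 4.17-fold difference. In Myb shRNA cultures it rose by 1.13 ± 0.28 (adjusted p = 0.0138, and 0.0613 without day 9 Myb shRNA replicate 3). Dync2li1 rose by 1.12 ± 0.12 in scrambled and 1.13 ± 0.12 in Myb shRNA cultures (adjusted p = 3.69e-05 and 2.06e-05), with the smallest p of the members in both arms. Bbs7 rose by 1.20 ± 0.19 and 1.18 ± 0.19 (adjusted p = 0.000812 and 0.000693). The rises of Ift172 in the 2 arms were not called different by the interaction.

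Of the 7 IFT-B core genes detected on all arrays 5 rose in scrambled and 7 in Myb shRNA cultures, where 9.55% and 9.26% of all genes rose. The same shares stand beside the counts of the other roles below. Ift27 rose by 0.72 ± 0.13 and 0.71 ± 0.13 (adjusted p = 0.00179 and 0.00164) and Ift88 by 1.09 ± 0.20 and 1.07 ± 0.20 (adjusted p = 0.00258 and 0.00242). Ift22 differed by 0.08 ± 0.16 in scrambled cultures (adjusted p = 0.774), and rose by 1.01 ± 0.16 in Myb shRNA cultures (adjusted p = 0.00072). Among the IFT-A genes Ift122 rose by 1.17 ± 0.19 and 1.04 ± 0.19 (adjusted p = 0.00109 and 0.00196), while Ift43 rose by 0.52 ± 0.11 and 0.82 ± 0.11 (adjusted p = 0.00696 and 0.000237). Ift20 differed by 0.03 ± 0.09 in scrambled cultures (adjusted p = 0.857) and by 0.24 ± 0.09 with Myb shRNA (adjusted p = 0.085, and 0.0485 with the block).

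Of the motors 6 of 7 rose in scrambled cultures and 3 of 7, the dynein-2 genes Dync2li1, Wdr34 and Wdr60, in Myb shRNA cultures. Kif3a rose by 0.91 ± 0.20 in scrambled cultures (adjusted p = 0.008) and differed by 0.47 ± 0.20 with Myb shRNA (adjusted p = 0.145, and 0.0336 with the block). Kifap3 rose by 0.62 ± 0.15 in scrambled cultures (adjusted p = 0.0108, and 0.0626 without day 9 scrambled replicate 3) and differed by 0.09 ± 0.15 with Myb shRNA (adjusted p = 0.758). Of the 6 BBSome subunits detected on all arrays 4 rose in scrambled and 5 in Myb shRNA cultures. Bbs5 differed by 0.37 ± 0.14 in the first (adjusted p = 0.0905, and 0.0414 with the block) and rose by 0.89 ± 0.14 in the second (adjusted p = 0.00062). Bbs1 was not detected on any day 3 Myb shRNA array, and its rise there was at least 1.36-fold (adjusted p = 0.0311, and 0.113 without day 9 Myb shRNA replicate 3). Since Bbs1 passed the filter only through the day 9 arrays, where it is high, this rise was favoured by the filter. Arl3 rose by 0.61 ± 0.12 in scrambled and 0.49 ± 0.12 in Myb shRNA cultures (adjusted p = 0.00347 and 0.0116, the latter 0.0564 without day 3 Myb shRNA replicate 1). Trim32 fell by 0.69 ± 0.11 with Myb shRNA (adjusted p = 0.000772) and differed by -0.26 ± 0.11 in scrambled cultures (adjusted p = 0.138).

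**Figure D4:**
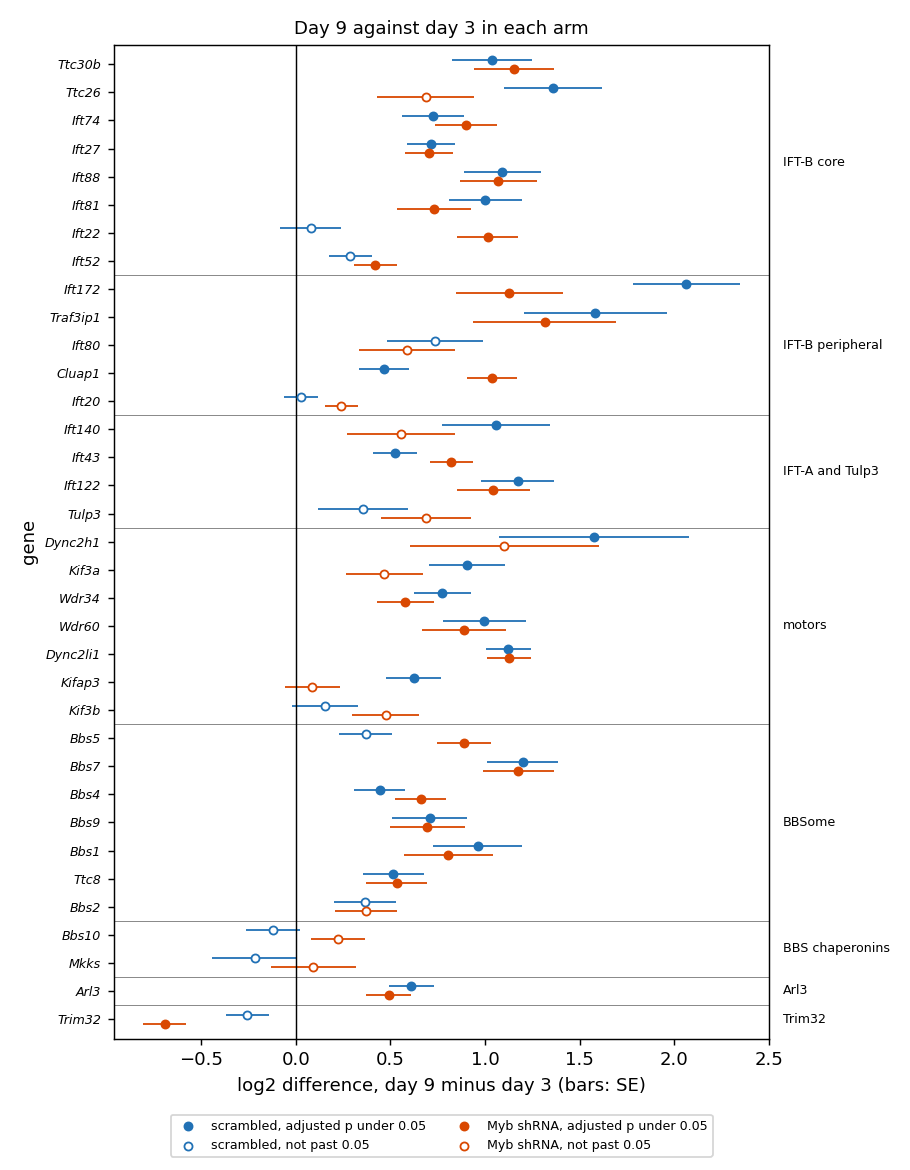
Log2 difference, day 9 minus day 3, in scrambled and Myb shRNA cultures for each measured member, with bars for the SE (3 arrays per group). Filled points passed an adjusted p of 0.05. Most members lie above 0 in both arms, with Ift172 farthest to the right in scrambled cultures and Trim32 to the left of 0.

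For 18 members more than 1 probe was detected, and the probe with the highest mean level over the arrays was used above. Tested over all probes, no member had probes with opposite calls at either day. The 3 probes of Ift172 each fell at day 9, with differences of -1.52 ± 0.28 (adjusted p = 0.00222), -1.64 ± 0.21 (adjusted p = 0.000193) and -1.75 ± 0.29 (adjusted p = 0.00106). The second probe of Ttc8 passed where the first had not, at -0.59 ± 0.14 (adjusted p = 0.013) at day 9, with -0.52 ± 0.14 (adjusted p = 0.0196) at day 3. At day 3 the same held for Ift81, with another probe at -0.90 ± 0.25 (adjusted p = 0.0192), and for Wdr60, with another probe at -0.67 ± 0.20 (adjusted p = 0.0274). Conversely, the probe used was the only one called for Kif3a at day 9, where the second gave -0.64 ± 0.29 (adjusted p = 0.173), and for Ift74 and Ift88 at day 3, where the others gave -0.57 ± 0.22 (adjusted p = 0.0858) and -0.46 ± 0.19 (adjusted p = 0.0967). Of the 3 probes of Ift20, 2 were called at day 9 and the third gave -0.50 ± 0.17 (adjusted p = 0.0623).

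Genes that work beside the trains were read from lists outside the name rule. Of 16 measured IFT-associated genes 7 fell at day 9 and 5 fell and 1 rose at day 3. Of all genes 9.48% fell at day 9, and 11.2% fell and 11.5% rose at day 3. Dynlrb2, a light chain of the dynein-2 motor, read 13.57, 13.58 and 13.87 on day 9 scrambled and 12.09, 12.10 and 12.67 on day 9 Myb shRNA arrays, and 12.54, 12.31 and 13.01 (scrambled) and 9.49, 9.42 and 9.72 (Myb shRNA) at day 3. Its differences were -1.39 ± 0.19 at day 9 (adjusted p = 0.000278), with -3.08 ± 0.19 at day 3 (adjusted p = 2.87e-07). Tctex1d2, another light chain, differed by -1.28 ± 0.12 and -1.56 ± 0.12 at the same days (adjusted p = 1.96e-05 and 1.02e-06). Rabl2, a GTPase that loads IFT-B at the base of the cilium, differed at day 9 and day 3 by -1.13 ± 0.15 and -1.11 ± 0.15 (adjusted p = 0.000279 and 0.000176). Of 15 measured genes that serve the BBSome and Arl GTPases 1 fell and 1 rose at day 9, beside 9.48% and 6.65% of all genes. At day 3 0 changed by limma, beside 11.2% lower and 11.5% higher of all genes. At an unadjusted limma p under 0.05, 1 was lower and 1 higher at day 3, beside 17.5% and 18.6% of all genes. The day 9 calls were Ccdc28b, at -0.97 ± 0.19 (adjusted p = 0.00307), and the vesicle GTPase Rab8a, at 0.38 ± 0.09 (adjusted p = 0.0124).

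Of 14 measured genes of the transition zone, the gate at the base of the cilium, 8 fell at each day, with Tmem107 at -1.06 ± 0.16 and -2.51 ± 0.16 and B9d1 at -0.83 ± 0.12 and -1.17 ± 0.12 at day 9 and day 3. Beside this count and those below, 9.48% of all genes fell at day 9 and 11.2% at day 3. Of 20 measured genes of the motile axoneme 17 fell at day 9 and 13 at day 3, with medians of -1.42 and -1.48, beside -0.74 and -0.60 for the transport genes, a difference that was not tested. Several axoneme genes lay under the lowest detected level (5.37 to 5.69 over the arrays) in day 3 Myb shRNA cultures. The filter can favour a fall of genes that pass it where they are high, so these medians are no exact sizes. The mean level of these axoneme genes ranged from 9.04 to 9.58 over the day 9 scrambled arrays, 7.71 to 8.45 over day 9 Myb shRNA, 7.54 to 8.35 over day 3 scrambled and 6.18 to 6.33 over day 3 Myb shRNA arrays. Of 8 measured transcription factors of ciliogenesis 4 fell at day 3 and 0 passed at day 9 by limma. At an unadjusted limma p under 0.05, 2 were lower at day 9, beside 13.9% of all genes. Foxj1 fell by 1.39 ± 0.26 at day 3 (adjusted p = 0.00207) and differed by -0.42 ± 0.26 at day 9 (adjusted p = 0.337). Rfx2 differed by -0.95 ± 0.31 at day 9 (adjusted p = 0.0507), with -0.71 ± 0.31 at day 3 (adjusted p = 0.114). The interaction of day and shRNA, called for 1.65% of all genes, was called, and positive, for 3 of the 8: Ccno at 2.11 ± 0.31 (adjusted p = 0.00579), Foxn4 at 2.15 ± 0.37 (adjusted p = 0.0112) and Mcidas at 2.21 ± 0.46 (adjusted p = 0.0293). For Foxj1 it was 0.97 ± 0.37 (adjusted p = 0.248). On the day 3 Myb shRNA arrays Foxj1 read 5.37, 5.08 and 5.70 and Foxn4 5.25, 5.31 and 5.63, near the lowest detected level. The day 3 fall of Foxj1 and the interactions of both genes are therefore no exact sizes.

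Most members moved together across the 12 arrays. Against the mean standardised level of the other measured members, 22 of the 35 had a correlation over 0.9, with a median of 0.923. Bbs7 (0.986), Ttc30b (0.982) and Ift88 (0.981) followed that mean most closely. Kifap3 (0.675) and Bbs10 (0.470) followed it loosely, Mkks did not (-0.183), and Trim32 ran against it (-0.914). Outside the name rule, the genes most like the mean of all 35 were Cep19 (0.994), Armc3 (0.994), Spag8 (0.993), Ccdc114 (0.993) and Fam167a (0.992). These values lay above that of every member, so the pattern was not particular to the members. The share of all genes over 0.9 was not counted. The 12 arrays fall into the 4 groups, so steps between groups enter every such correlation, and no test is given. Each member was left out of the mean that it was set against.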

How the data were processed

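Arrays were hybridised with biotin-labelled antisense RNA made from total RNA. The authors deposited, per the file headers, an intensity before normalisation and a detection p-value for every probe and array. The authors also deposited processed log2 values, whose normalisation is not stated. Per the submitters' processing notes BeadStudio 3.0 and limma were used. No aligner applies, and no genome build is given in the sources used here for the array.

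The intensities were corrected and quantile-normalised with neqc (offset 16) in limma 3.58.1 under R 4.3.3. The filter (detection p-value under 0.01, 3 or more arrays) left 15526 probes, of which 13793 had a gene name. Names came from the platform annotation, updated through RefSeq (GRCm38.p6). The probe with the highest mean represented a gene. A linear model of the 4 groups (8 residual degrees of freedom) was moderated with eBayes with a trend. P-values are two-sided. Differences had a median SE of 0.167, and 3 arrays per group limit the precision. The method was tested on simulated data with independent noise, for the day 9 shRNA comparison. Of genes changed by 0.7 on the log2 scale 52% were called, and of those changed by 1.5, 94%. Of the calls 4.58% were false. A member without a call is therefore not shown to be unchanged.

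The members, the gene lists, the tests and the alternatives were chosen with earlier results of these data known. Any member could be named. Up to 3 per role and comparison with the smallest p were given on every array, together with further members described here after their values were seen. The lists outside the name rule gave up to 3 genes with the smallest p, besides Foxj1, Rfx2, Rfx3 and Myb. Some further marker genes were named after their values were seen. Rfx3 was not among the genes tested.

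Replicate numbers come from the labels, which do not say that they mark a shared culture or mouse. Deviations from the group means of arrays with the same number correlated above 0.1 for every pair in the 4 comparisons of 2 groups (the lowest was 0.297 between shRNAs at day 9, 0.150 at day 3, 0.267 between days with scrambled and 0.107 with Myb shRNA), so blocked values are given there. For the interaction 2 pairs lay lower (0.0196 and 0.0617).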

Additional observations from a re-analysis of the deposited data

How the results depend on the processing

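Counts of called members were recomputed under each alternative, and no called value changed its sign under any of them. With the replicate block 26 members were called for shRNA at day 9, 27 at day 3 (17 without it), 26 and 31 between days with scrambled and with Myb shRNA, and 2 for the interaction (0 without it), beside 24.8%, 36.2%, 30.0%, 25.2% and 7.62% of all genes. The block ended none of the calls made without it and, beyond the calls gained that are named in the text, changed no other. Leaving out each array in turn gave 17 to 24 calls at day 9, 15 to 20 at day 3, 15 to 28 and 13 to 27 between days with scrambled and with Myb shRNA, and 0 to 2 for the interaction. Array weights gave 29, 24, 28 and 31 calls for these 4 comparisons and 8 for the interaction, beside 27.9%, 47.3%, 38.0%, 36.8% and 19.5% of all genes. Leaving out all 4 arrays numbered 3, an alternative chosen after seeing the data, gave 26, 21, 28 and 25, and 9 for the interaction, beside 25.7%, 38.4%, 37.6%, 26.4% and 15% of all genes. The cause of these shifts was not tested. The authors' deposited log2 values gave 20, 16, 24, 24 and 0. An offset of 50, a detection filter on all 12 arrays, no filter, the mean of a gene's probes, no trend, and fits of only the groups compared kept every count within 1.5 times. Members near background (Ttc26, Bbs1) have no exact size where a group had no detection. A bound could be given there only for the rise of Bbs1 with Myb shRNA.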
